A study of Mus musculus with 12 samples.

Results

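The enteric nervous system of the mouse colon was followed through 8 genes that mark its glia and neurons: Sox10, S100b and Gfap for enteric glia, and Elavl4, Uchl1, Ret, Vip and Nos1 for enteric neurons. The 8 genes were chosen by name among the 54532 genes of the count table, and all 8 were among the 16904 genes with enough reads to be tested. RNA-Seq was performed on colonic tissue of 12 male wild-type C57BL/6J mice aged 5 weeks, in 4 groups of 3. Mice of the control group were not given dextran sodium sulfate (DSS), which damages the lining of the colon when it is drunk. The model group received DSS, the Rhy group received DSS together with rhynchophylline (Rhy), an alkaloid, and the DXM group received DSS together with dexamethasone (DXM), a synthetic glucocorticoid. In the acute colitis experiment the mice drank 3% DSS, DXM was given at 4 mg/kg and Rhy at 2, 4 or 8 mg/kg; the Rhy dose of the 3 sequenced mice is not given in the sources used here. No mouse received Rhy or DXM without DSS, so a drug can be compared here only on top of DSS.

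The enteric nervous system lies within the gut wall, in a myenteric plexus between the muscle layers and a submucosal plexus below the mucosa, and directs motility, secretion and blood flow. Its neurons and glia both descend from neural crest cells, whose entry into the gut depends on the receptor Ret and the transcription factor Sox10. Inhibitory motor neurons relax the muscle by releasing nitric oxide, made by the enzyme that Nos1 encodes, and vasoactive intestinal peptide, encoded by Vip, while glia surround the neurons and can take on a reactive state in which the filament protein Gfap is known to increase.

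The 8 genes lie on 6 chromosomes, and their positions are given on GRCm38 as in the count table. Sox10 (ENSMUSG00000033006, chr15:79154908-79165240, minus strand) encodes the transcription factor that maintains glial identity. S100b (ENSMUSG00000033208, chr10:76253853-76261159, plus strand) encodes a calcium-binding protein of glia, and Gfap (ENSMUSG00000020932, chr11:102887336-102900912, minus strand) encodes the glial intermediate filament. Elavl4 (ENSMUSG00000028546, chr4:110203722-110351909, minus strand) encodes the RNA-binding protein HuD of the neuronal cell body. Uchl1 (ENSMUSG00000029223, chr5:66676091-66687234, plus strand) encodes the neuronal deubiquitinase PGP9.5. Ret (ENSMUSG00000030110, chr6:118151745-118197718, minus strand) encodes the receptor tyrosine kinase for the GDNF family of ligands. Vip (ENSMUSG00000019772, chr10:5639218-5647617, plus strand) and Nos1 (ENSMUSG00000029361, chr5:117781032-117958840, plus strand) encode the transmitter peptide and the neuronal nitric oxide synthase. S100b overlaps Dip2a on the opposite strand, which had 10937 reads over the 12 libraries against 549 for S100b, and whether the counting used strand is not stated, so the values of S100b are uncertain. The genes that overlap Gfap, Uchl1 and Nos1 had at most 50 reads over the 12 libraries, and Sox10, Elavl4, Ret and Vip overlap no other annotated gene.

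Promoter sequences from RefSeq (GRCm38.p6) were found for 6 of the 8 genes, with Sox10 and Ret not matched. The 250 bases before a RefSeq start site are shown for Gfap, Nos1 and Vip, the 3 genes on which the differences between groups turn. Capitals mark a match, on either strand, to the CRE core TGACG, the SOX core ACAAAG, the E-box CAGCTG, the TATA box TATAAA, the AP-1 site TGACTCA or the RE1 site TCAGCACC. The 3 windows lie at chr11:102897201-102897450 (Gfap, minus strand), chr5:117866589-117866838 (Nos1, plus strand) and chr10:5638968-5639217 (Vip, plus strand). Only the Vip window ends at the start of the gene as annotated in the count table. The Gfap and Nos1 windows lie inside the annotated span of their genes, before a start site within it. Which start site the colon uses was not tested.
Gfap: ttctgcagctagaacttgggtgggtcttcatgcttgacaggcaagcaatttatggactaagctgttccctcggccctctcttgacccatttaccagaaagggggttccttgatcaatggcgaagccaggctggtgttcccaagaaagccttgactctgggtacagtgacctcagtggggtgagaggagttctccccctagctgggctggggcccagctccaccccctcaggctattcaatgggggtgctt
Nos1: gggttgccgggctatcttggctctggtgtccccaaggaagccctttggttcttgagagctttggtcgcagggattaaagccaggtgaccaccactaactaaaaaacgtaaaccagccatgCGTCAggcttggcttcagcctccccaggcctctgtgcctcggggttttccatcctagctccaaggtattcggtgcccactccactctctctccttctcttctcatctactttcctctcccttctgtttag
Vip: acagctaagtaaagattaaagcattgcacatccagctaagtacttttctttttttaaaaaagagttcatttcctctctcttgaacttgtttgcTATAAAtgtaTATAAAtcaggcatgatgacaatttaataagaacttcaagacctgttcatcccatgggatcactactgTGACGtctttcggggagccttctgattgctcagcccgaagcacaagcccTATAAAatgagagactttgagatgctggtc
The Vip window held 3 copies of the TATA box, of which the nearest lay 30 to 25 bases before the start site, and 1 CRE core 79 to 75 bases before it. The Nos1 window held 1 CRE core, on the minus strand 130 to 126 bases before its start site within the gene, and the Gfap window held none of these letters. Among 32851 promoters of the same length, 17.8% held the CRE core, 12.4% the TATA box, 16.5% the SOX core, 13% the E-box, 4.46% the AP-1 site and 1.32% the RE1 site. The Vip window was poorer in G and C (38.4%) than the Nos1 (54.0%) and Gfap (55.6%) windows, and the median of all promoters was 52.4%. A match is a run of letters and not a shown binding site, and no protein binding was measured.

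The libraries held 14346478 to 17749716 reads counted on genes, and 3 features of single libraries touched the results. Model 1 and Model 2 resembled each other much more closely than other libraries did, with a common dispersion in edgeR (how far counts vary between libraries over and above sampling) of 0.00201 against 0.0604 to 0.351 in the 65 other pairs. The labels give them as separate samples, and whether they came from 2 mice or from 1 is not known from the sources used here, so that the n of 3 for the model group may in effect be 2. The differences from the model group, of the 8 genes and of the other genes named for an unadjusted p under 0.05, were therefore also computed with the reads of Model 1 and Model 2 added into 1 library, and the value is given where that p was lost. Hoxb13, a gene of the distal colon, was at 0 to 1.49 CPM (the count scaled to library size by TMM) in Control 3, Model 3 and Rhy 1 and at 72.0 to 316.5 CPM in the other 9 libraries, and the same differences were computed without these 3 libraries. Mitochondrial genes took 6.3% to 25.7% of the reads. In whole tissue, fewer cells of a type and less RNA per cell cannot be told apart. The labels of the samples say nothing of shared cages or litters, and p-values measure the spread between these mice.

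The defining markers of enteric neurons and glia were present. All 18 genes of a list of neuronal identity and cytoskeleton genes passed the filter on low counts, Phox2a and Hand2 among them, as did 14 of 15 glial and Schwann cell genes. Per gene length, as FPKM (the count scaled to gene length and library size), the mean level over 12 libraries was 23.6 for Uchl1 and 14.2 for Vip. The other 6 genes were at 1.39 to 2.53 FPKM, in the order Ret, S100b, Sox10, Elavl4, Gfap and Nos1. The SD over libraries was 10.6 FPKM for Uchl1 and 6.76 for Vip, so these neighbours in the order overlapped, as did each neighbouring pair from Ret down to Nos1. From Vip to Ret the ranges met only at their ends: Vip was at 3.41 to 28.1 FPKM and Ret at 1.09 to 3.61 FPKM, with only the Vip value of Control 3 below the highest value of Ret. Gene levels of this size rest on few reads, with 24 to 66 reads per library for S100b and 27 to 262 for Gfap, against 168 to 989 for Uchl1.

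**Figure D1:**
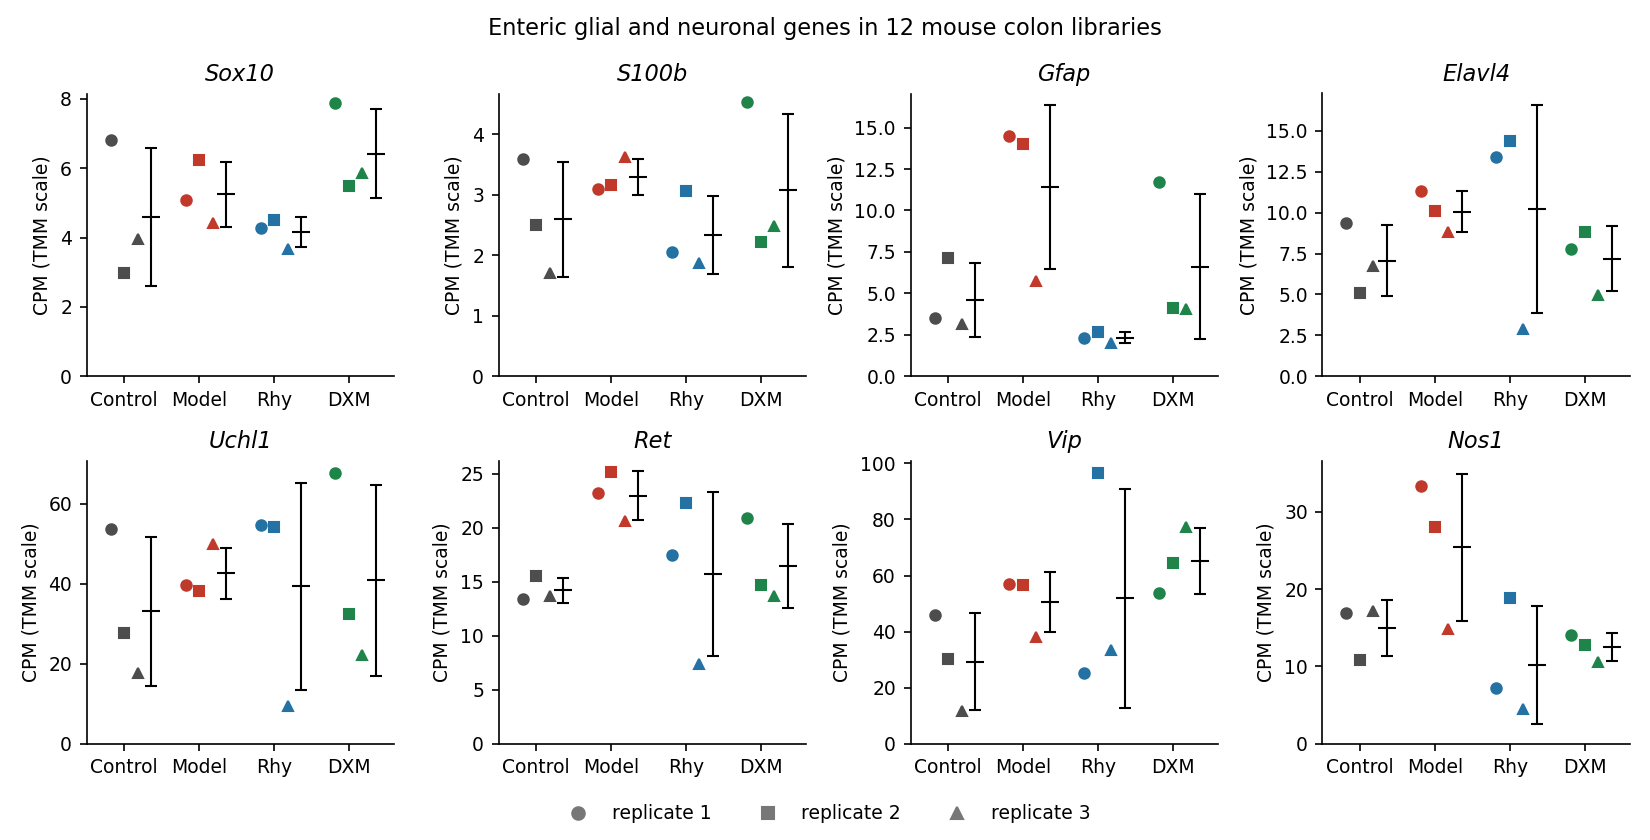
Level of each gene in the 12 libraries (vertical axis, CPM on the TMM scale; horizontal axis, group). Symbols mark the replicate, and the bar beside each group is its mean ± SD (n = 3). Gfap sits between 1.98 and 2.68 CPM in the 3 Rhy libraries and between 5.72 and 14.5 CPM in the 3 model libraries, while Rhy 3 is the lowest library for Elavl4, Uchl1, Ret and Nos1.

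Gfap was the gene of the 8 that differed most between groups. In the plot of levels by library Gfap was at 3.52, 7.16 and 3.13 CPM in the control mice, 14.5, 14 and 5.72 CPM in the model mice, 2.31, 2.68 and 1.98 CPM in the Rhy mice and 11.7, 4.10 and 4.05 CPM in the DXM mice. All 3 Rhy libraries were below all libraries of the other 3 groups, the 2 most alike model libraries were the highest of the 12, and the control and model groups overlapped, as did the DXM group with both. Rhy against model gave a mean of 2.32 ± 0.349 against 11.4 ± 4.91 CPM (SD, n = 3 each), a 4.89-fold lower level.
On the log2 scale the difference was -2.29 ± 0.53 (SE), and edgeR's quasi-likelihood test gave it an unadjusted p of 0.000997, which ranked 7 among 16904 genes. It did not pass the adjustment over all genes (Benjamini-Hochberg adjusted p = 1 in edgeR), and no gene of this comparison did. With Model 1 and Model 2 as 1 library the log2 difference was -2.10 (unadjusted p = 0.00403), and without the 3 libraries low in Hoxb13 it was -2.58 (unadjusted p = 0.00183).
DESeq2 fitted to the 6 libraries of the Rhy and model groups alone gave -2.27 with an adjusted p of 0.000346, and over all 20 alternatives the adjusted p ranged from 0.000346 to 1. The log2 difference ranged from -2.58 to -1.17, the smallest with limma on log2(FPKM + 1), a scale on which the added 1 shrinks the differences of genes at this level. By the DESeq2 fit to the 6 libraries 41 of 27279 genes passed (0.15%), while DESeq2 on all 12 libraries gave Gfap an adjusted p of 0.0651.

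Gfap was also higher in the model than in the control group, by 1.31 ± 0.51 on the log2 scale (SE; unadjusted p = 0.0242 in edgeR, adjusted p = 0.488). The means were 11.4 ± 4.91 against 4.60 ± 2.23 CPM (SD, n = 3 each), and Model 3 at 5.72 CPM was below Control 2 at 7.16 CPM. With Model 1 and Model 2 as 1 library the difference was 1.12 (unadjusted p = 0.0745). Without the 3 libraries low in Hoxb13 it was 1.37 (unadjusted p = 0.0377). It was 1.15 without Control 1, 1.05 without Control 3, 1.10 without Model 1 and 1.13 without Model 2, each with an unadjusted p above the threshold of 0.05. Rhy against control gave -0.98 ± 0.52 (SE; unadjusted p = 0.0824 in edgeR), without overlap between the groups. DXM against model gave -0.79 ± 0.50 (SE; unadjusted p = 0.138 in edgeR), with DXM 1 among the model values and DXM 2 and 3 below all of them.

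Sox10, the transcription factor of the glial lineage, varied little. Its level was 6.81, 2.99 and 3.95 CPM in the control mice, 5.07, 6.25 and 4.41 CPM in the model mice, 4.28, 4.51 and 3.68 CPM in the Rhy mice and 7.89, 5.5 and 5.87 CPM in the DXM mice. Every pair of groups overlapped in Sox10 except for the Rhy and DXM groups, which were not compared by a test. The log2 differences of Sox10 ran from -0.34 ± 0.33 (Rhy against model, SE) to 0.49 ± 0.33 (DXM against control, SE), with a lowest unadjusted p of 0.168 in edgeR.

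S100b was at 3.59, 2.5 and 1.70 CPM in the control mice, 3.09, 3.16 and 3.63 CPM in the model mice, 2.05, 3.07 and 1.87 CPM in the Rhy mice and 4.53, 2.22 and 2.48 CPM in the DXM mice. The 3 Rhy libraries were below the 3 model libraries, with Rhy 2 and Model 1 nearly touching, and the log2 difference was -0.50 ± 0.40 (SE; unadjusted p = 0.235 in edgeR). The highest value of both Sox10 and S100b was in DXM 1.

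Gfap was also set against the other glial genes within each library, which asks whether it differed more than Sox10 and S100b. The number of Gfap reads per Sox10 read was 0.516, 2.40 and 0.792 in the control libraries, 2.85, 2.23 and 1.30 in the model libraries, 0.540, 0.594 and 0.538 in the Rhy libraries and 1.48, 0.746 and 0.690 in the DXM libraries. The Rhy libraries lay in a narrow range below all model and DXM libraries, although Control 1 was lower than all of them. The geometric means were 0.557 in the Rhy group and 2.02 in the model group, a 3.63-fold difference, and Gfap per S100b read was 3.15-fold lower in the Rhy than in the model group (1.01 against 3.19). These ratios do not depend on the scaling of libraries. They were chosen after the values of the genes were seen and are given with no test.

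**Figure D2:**
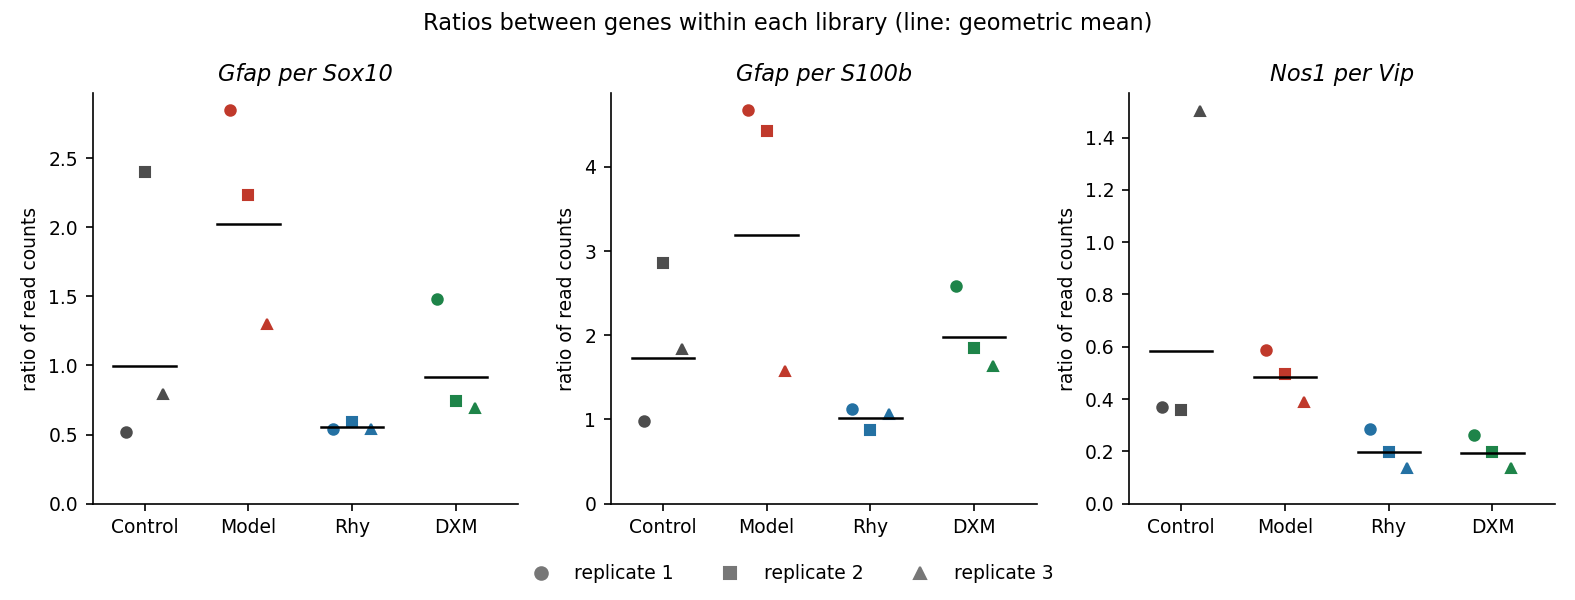
Ratios of read counts between genes of the same library (vertical axes) in the 4 groups (horizontal axes), with the geometric mean of each group as a line. Gfap per Sox10 is 0.538 to 0.594 in the Rhy group and 1.30 to 2.85 in the model group, and Nos1 per Vip is 0.135 to 0.284 in the Rhy and DXM groups and 0.359 to 1.5 in the control and model groups.

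Elavl4 and Uchl1, which mark the neuron as a whole, did not separate the groups. Uchl1 was at 53.7, 27.7 and 17.8 CPM in the control mice, 39.6, 38.3 and 49.9 CPM in the model mice, 54.6, 54.1 and 9.51 CPM in the Rhy mice and 67.8, 32.5 and 22.2 CPM in the DXM mice. The values spread 3.02-fold within the control group and 5.75-fold within the Rhy group, more than between the group means of 33.1 to 42.6 CPM. Elavl4 was at 9.36, 5.08 and 6.75 CPM in the control mice, 11.3, 10.1 and 8.82 CPM in the model mice, 13.4, 14.4 and 2.89 CPM in the Rhy mice and 7.75, 8.82 and 4.96 CPM in the DXM mice. Rhy 1 and Rhy 2 held the highest Elavl4 values of all libraries and Rhy 3 the lowest. Over the 5 comparisons the lowest unadjusted p in edgeR was 0.298 for Elavl4 and 0.549 for Uchl1.

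Ret was at 13.4, 15.5 and 13.7 CPM in the control mice, 23.2, 25.2 and 20.6 CPM in the model mice, 17.5, 22.3 and 7.41 CPM in the Rhy mice and 20.9, 14.7 and 13.7 CPM in the DXM mice. The model libraries were above all control libraries, the control group was the tightest of the 4, and the Rhy and DXM groups each overlapped both. The mean of Ret was 23.0 ± 2.32 CPM in the model group and 14.2 ± 1.13 CPM in the control group (SD, n = 3 each), a log2 difference of 0.69 ± 0.33 (SE; unadjusted p = 0.0569 in edgeR, adjusted p = 0.528). The difference kept its direction in all 20 alternatives, at 0.46 to 0.76, and was 0.66 with Model 1 and Model 2 as 1 library and 0.70 without the 3 libraries low in Hoxb13. Rhy against model gave -0.55 ± 0.33 (SE; unadjusted p = 0.121 in edgeR), which was -0.21 without Rhy 3.

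Vip had the widest spread of the 8 genes, 8.42-fold over the 12 libraries. It was at 46.0, 30.2 and 11.5 CPM in the control mice, 56.9, 56.6 and 38.0 CPM in the model mice, 25.3, 96.6 and 33.5 CPM in the Rhy mice and 53.9, 64.4 and 77.3 CPM in the DXM mice. The DXM libraries were above all control libraries, while the Rhy group held the highest value of the 12 and 2 values below every model library. DXM against control gave means of 65.2 ± 11.7 against 29.2 ± 17.3 CPM (SD, n = 3 each), a log2 difference of 1.16 ± 0.52 (SE; unadjusted p = 0.0464 in edgeR, adjusted p = 0.259).
That difference was 0.75 without Control 3, the library lowest in Vip (unadjusted p = 0.15), 0.75 without the 3 libraries low in Hoxb13 (unadjusted p = 0.0944), and 0.42 with the mean level of 15 smooth muscle genes as a term in the fit (unadjusted p = 0.57). Smooth muscle genes moved with it: their summed level was 4199 to 7874 CPM in the control and 6569 to 11420 CPM in the DXM libraries. Each of the 15 smooth muscle genes had a higher fitted level in the DXM than in the control group (median log2 difference 0.74), 10 of them with an unadjusted p under 0.05 (8.68% of all genes) and none with an adjusted one. On the log2 scale Vip differed by 0.04 ± 0.51 in Rhy against model and by 0.37 ± 0.51 in DXM against model (SE).

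Nos1 was at 16.9, 10.8 and 17.2 CPM in the control mice, 33.4, 28.0 and 14.8 CPM in the model mice, 7.19, 18.9 and 4.53 CPM in the Rhy mice and 14.1, 12.8 and 10.6 CPM in the DXM mice. The DXM libraries were below all model libraries, by a small step from DXM 1 to Model 3, and Rhy 1 and Rhy 3 were the lowest of the 12 while Rhy 2 lay among the model values. DXM against model gave means of 12.5 ± 1.73 against 25.4 ± 9.54 CPM (SD, n = 3 each), a log2 difference of -1.03 ± 0.46 (SE; unadjusted p = 0.0458 in edgeR, adjusted p = 0.646). Rhy against model gave 10.2 ± 7.67 CPM in the Rhy group (SD, n = 3) and a log2 difference of -1.31 ± 0.46 (SE; unadjusted p = 0.0154 in edgeR, adjusted p = 1).
With Model 1 and Model 2 as 1 library these became -0.87 (unadjusted p = 0.12) for DXM and -1.16 (unadjusted p = 0.0475) for Rhy. Without the 3 libraries low in Hoxb13 they were -1.28 (unadjusted p = 0.0241) and -1.36 (unadjusted p = 0.0318). For Rhy the difference was -1.07 without Model 1, -1.12 without Rhy 1 and -0.95 without Rhy 3, each with an unadjusted p above 0.05, and -2.12 without Rhy 2. For DXM the unadjusted p was above 0.05 without Model 1 or Model 2 and without any 1 of the 3 DXM libraries. DESeq2 fitted to the DXM and model groups alone gave -1 with an adjusted p of 0.0489, at which 590 of 28336 genes passed (2.08%). Over 20 alternatives the adjusted p of Nos1 in DXM against model ranged from 0.0489 to 1.

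Nos1 and Vip are made by overlapping sets of inhibitory neurons, and their proportion within a library was compared. The number of Nos1 reads per Vip read was 0.368, 0.359 and 1.5 in the control libraries, 0.586, 0.495 and 0.390 in the model libraries, 0.284, 0.196 and 0.135 in the Rhy libraries and 0.261, 0.199 and 0.138 in the DXM libraries. All 6 libraries of mice given Rhy or DXM were below all 6 of the other mice. The geometric mean was 0.196 in the Rhy, 0.192 in the DXM, 0.484 in the model and 0.583 in the control group, which is 2.47-fold lower in the Rhy than in the model group and 2.51-fold lower in the DXM than in the same model group. The ratio was chosen after the values were seen and is given with no test, and both drug comparisons share the 3 model libraries. Set against Uchl1, neither gene separated a drug group from the model group. Geometric means of Nos1 per Uchl1 were 0.280 (Rhy), 0.339 (DXM) and 0.568 (model), and of Vip per Uchl1 1.43, 1.76 and 1.17. Ret and Elavl4 per Uchl1 and S100b per Sox10 overlapped there too. How often other gene pairs separate was not counted.

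**Figure D3:**
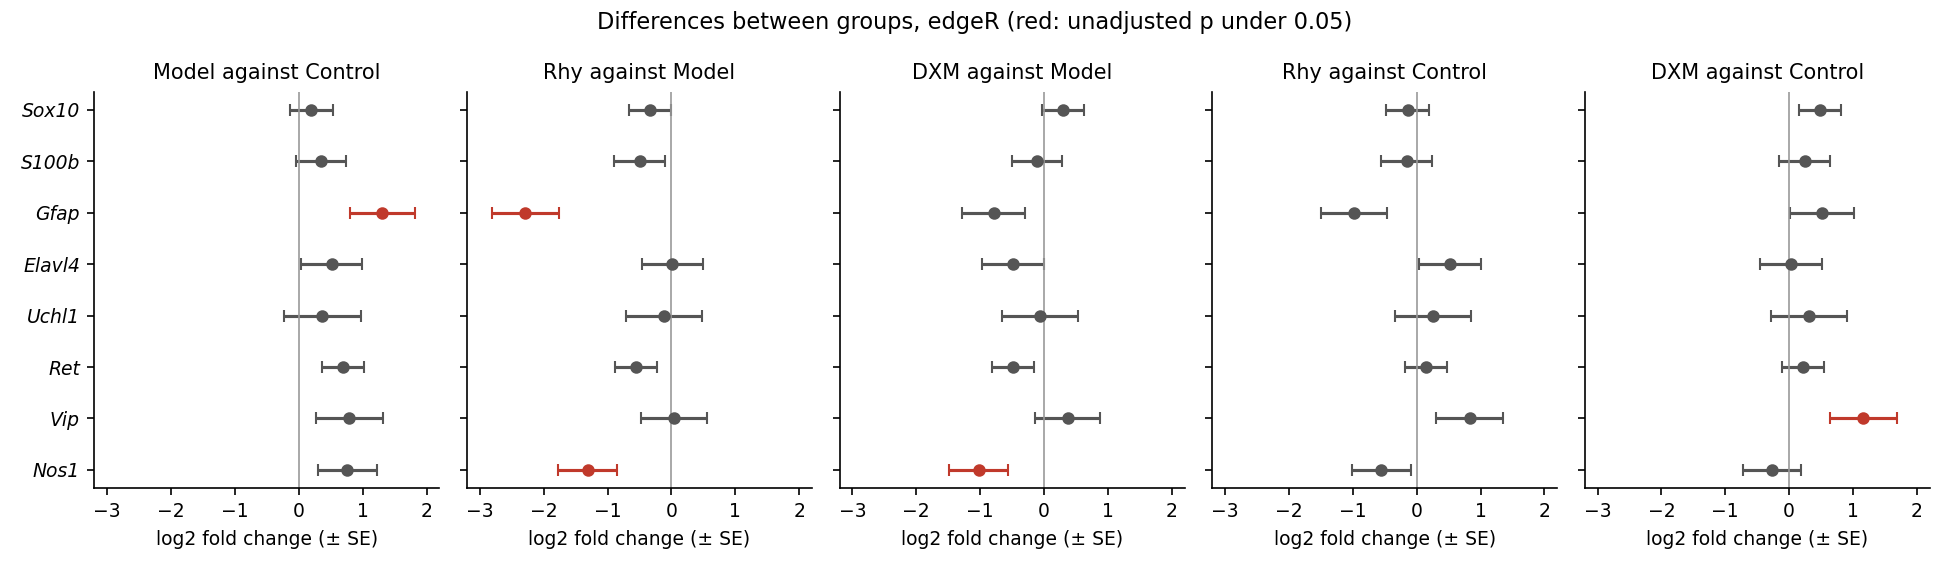
Log2 fold change of each gene in the 5 comparisons (horizontal axes; points, edgeR estimate; bars, ± SE), with the genes on the vertical axis. Red marks an unadjusted p under 0.05: Gfap at 1.31 in model against control, Gfap at -2.29 and Nos1 at -1.31 in Rhy against model, Nos1 at -1.03 in DXM against model and Vip at 1.16 in DXM against control.

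Across the 8 genes, no comparison gave an adjusted p under 0.05 in edgeR (0% of the 16904 genes passed in each of the 5 comparisons). In model against control all 8 genes had a fitted level above that of the controls, against 50.7% of all genes, with a median log2 difference of 0.60 against 0.01 over all genes. Of the 8, 1 gene (Gfap) was higher at an unadjusted p under 0.05 (5.11% of all genes were) and 1 (Ret) was above without overlap (10.4% of all genes). Without the 3 libraries low in Hoxb13, 6 of the 8 were above the controls. In Rhy against model 6 of 8 were lower with a median of -0.42 (5 of 8 and -0.23 without Rhy 3, 8 of 8 and -0.76 without Rhy 2), and 2 genes (Gfap and Nos1) were lower at an unadjusted p under 0.05 (1.98% of all genes) and none was higher (1.74% of all genes). S100b and Gfap were below without overlap (6.02% of all genes).
In DXM against model 6 of 8 were lower with a median of -0.29 (4 of 8 without DXM 2 or without DXM 3), and 1 gene (Nos1) was lower at an unadjusted p under 0.05 (2.8% of all genes) and below without overlap (12.2% of all genes), and none was higher by the first rule (4.89% of all genes). In Rhy against control, Gfap alone was below without overlap (4.79% of all genes) and no gene of the 8 was higher (6.46% of all genes) or lower (5.09% of all genes) at an unadjusted p under 0.05. In DXM against control, Vip was higher at an unadjusted p under 0.05 (8.68% of all genes) and above without overlap (9.77% of all genes). Of the 8 genes, 7 had a higher fitted level in DXM against control (53.8% of all genes) and 4 in Rhy against control (47.7% of all genes). Over all genes the number with an unadjusted p under 0.05 was 1626, 628, 1300, 1953 and 3189 in these 5 comparisons in the same order. An exact permutation test of 3 against 3 libraries cannot give a p below 0.1.

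The spread within the groups was shared between the neuronal genes. Rhy 3 was the lowest of the 12 libraries in 5 of the 8 genes (Gfap, Elavl4, Uchl1, Ret and Nos1), and in 18 of 31 genes of neuronal identity and of synaptic vesicles, Elavl4 and Uchl1 included (58.1%), against 7.23% of all genes tested. DXM 1 was the highest in 13 of the 31 genes (41.9%), against 8.93% of all genes. Vip did not share the low level of Rhy 3, at 33.5 CPM there against 25.3 CPM in Rhy 1. Smooth muscle genes summed to 7895 CPM in Rhy 3, between the other Rhy libraries (7327 and 8070 CPM). Mitochondrial genes took 8.9% of the reads in Rhy 3, against 23.8% in Rhy 1 and 15.2% in Rhy 2. The share was 25.7% in DXM 1, and in Control 3, DXM 2 and DXM 3 it was 6.3%, 7.9% and 7.5%, below that of Rhy 3. The cause of the shared spread was not tested.

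**Figure D4:**
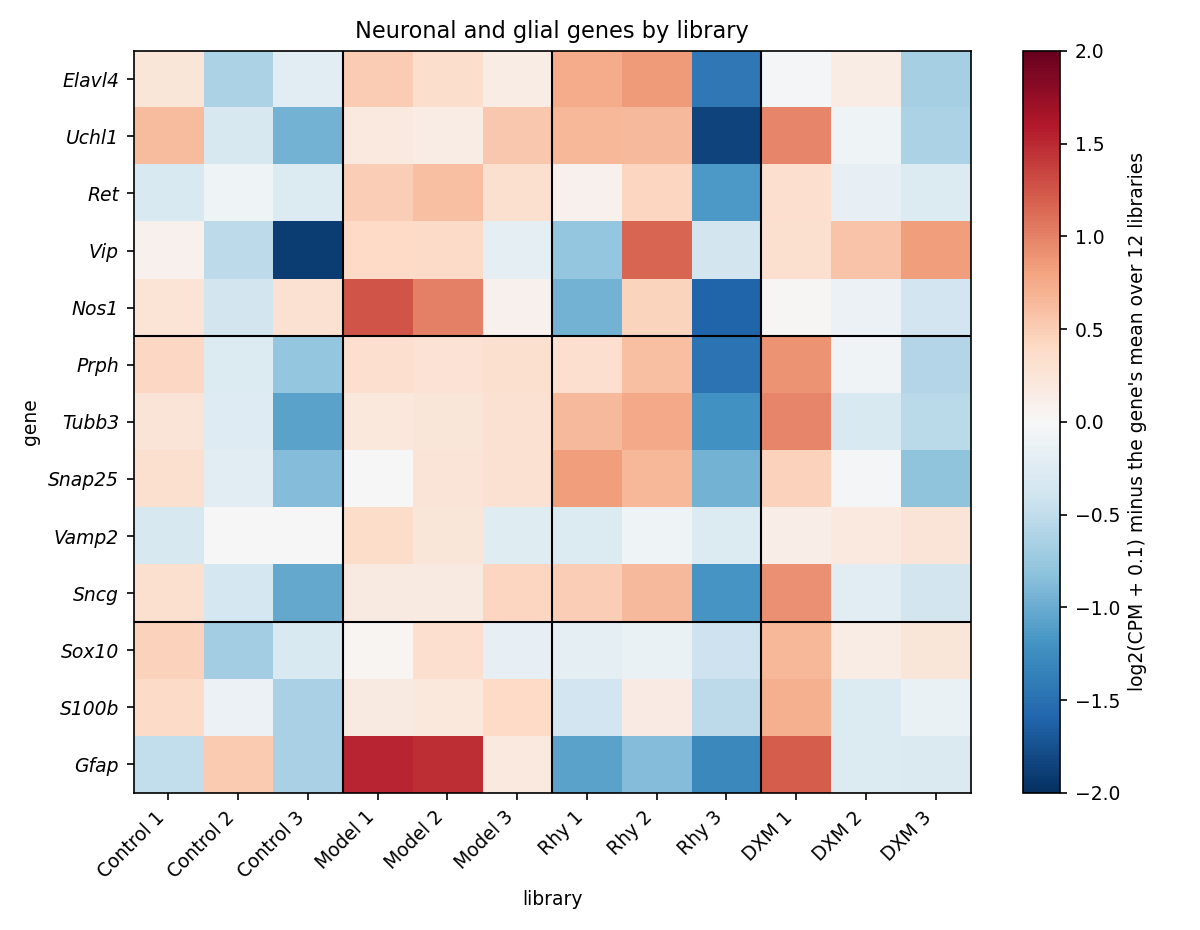
Level of neuronal genes (top), 5 further neuronal and synaptic genes (middle) and glial genes (bottom) in each library, as log2(CPM + 0.1) minus the mean of the gene over 12 libraries; blue is below and red above that mean, and the scale is cut at -2 and 2. Uchl1 is at -1.85 and Elavl4 at -1.43 in Rhy 3, where Prph, Tubb3, Snap25 and Sncg are also blue.

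The genes could be set beside each other over 11 samples, with Model 1 and Model 2 averaged. Elavl4, Uchl1 and Ret varied together in log2 level, with Pearson r of 0.83 (Elavl4 and Uchl1), 0.81 (Uchl1 and Ret) and 0.79 (Elavl4 and Ret). Vip followed the other neuronal genes weakly, with r of 0.23 to 0.36. Gfap had r of 0.63 with S100b, 0.61 with Ret and 0.59 with Nos1. It had r of 0.38 with both Uchl1 and Sox10, 0.22 with Vip and 0.12 with Elavl4. Sox10 and S100b had r of 0.64. These samples share the groups and the depth of their libraries, and the values are descriptions. Sox10 and Vip varied with the smooth muscle genes (r of 0.60 and 0.62), Nos1 did not (r of -0.27), and Uchl1 varied with the share of mitochondrial reads (r of 0.72); their part in the results was not tested beyond the fit with the smooth muscle term.
Of all genes tested, the one most like Uchl1 over these samples was Prph, the peripheral neuron filament peripherin (r = 0.99). Ret was most like Mapk10, a kinase gene of neurons (r = 0.96), S100b most like Syt5, a synaptotagmin (r = 0.94), and Nos1 most like Dclk1, a doublecortin-like kinase (r = 0.94). Sox10 was most like Tmem132e (r = 0.92), Gfap most like Mier2 (r = 0.94) and Vip most like Ttll1 (r = 0.95). The mean of the 8 standardised levels was most like Kif5a, a neuronal kinesin, Hcn3, Tmem130, Abcg4 and Ndrg4, with r of 0.95 to 0.98. Each is the highest of 16904 values, so that a high r alone carries no weight.

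In model against control the wider neuronal lists, which hold Elavl4, Uchl1, Vip and Nos1 too, were mostly higher. Of 18 genes of neuronal identity and cytoskeleton, 17 were higher in the model group, with a median log2 difference of 0.51, and 1 of them, Nefm (a neurofilament subunit), was higher at an unadjusted p under 0.05 (5.11% of all genes were). All 13 genes of synaptic vesicles and transmitter release were higher (median 0.53), with Sv2b, Syt4 and Syn2 at an unadjusted p under 0.05. All 13 tested genes of excitatory and sensory transmitters were higher (median 0.55), with Ddc, which makes serotonin and dopamine, at an unadjusted p under 0.05. With Model 1 and Model 2 as 1 library Nefm and Sv2b kept an unadjusted p under 0.05 (0.0354 and 0.0379 in edgeR), and Syt4, Syn2 and Ddc did not (0.0888, 0.0928 and 0.104). Without Control 3 the medians of the 3 lists were 0.27, 0.33 and 0.34. Of 7 genes of inhibitory motor neurons, Nos1 and Vip included, 4 were higher. No gene of any list had an adjusted p under 0.05 in edgeR in any comparison, and 50.7% of all genes were higher in the model group. The drug groups were mostly above the controls in the same 3 lists. In DXM against control 18 of 18, 13 of 13 and 10 of 13 were higher (medians 0.41, 0.33 and 0.16), against 53.8% of all genes. In Rhy against control 15 of 18, 9 of 13 and 10 of 13 were higher (medians 0.39, 0.29 and 0.34), against 47.7% of all genes.

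The lower fitted levels of neuronal genes in Rhy against model rested largely on Rhy 3. In Rhy against model, 12 of 13 synaptic genes were lower (median -0.44) and 12 of 18 genes of neuronal identity were lower (median -0.15), where 48.3% of all genes were higher. Without Rhy 3 these became 9 of 13 (median -0.13) and 4 of 18 (median 0.17). The summed level of the synaptic genes was 187.1, 212.6 and 102.2 CPM in the Rhy and 210.1, 210.9 and 181 CPM in the model libraries, so that Rhy 1 lay among the model values, Rhy 2 just above them and Rhy 3 below. In DXM against model, 11 of 13 synaptic and 12 of 18 neuronal identity genes were lower (medians -0.22 and -0.08), where 48.5% of all genes were higher. Without DXM 3 these became 7 of 13 and 7 of 18 (medians -0.03 and 0.09), without DXM 2 they became 8 of 13 and 7 of 18, and without DXM 1, the library with the highest value in 5 of the 13 synaptic genes, they became 12 of 13 and 15 of 18 (medians -0.56 and -0.57). Sv2b, a synaptic vesicle protein, was at 4.74, 4.13 and 2.92 CPM in the model mice and at 2.48, 2.02 and 1.19 CPM in the Rhy mice, without overlap. Its log2 difference was -1.06 ± 0.41 (SE; unadjusted p = 0.0252 in edgeR), or -0.97 with Model 1 and Model 2 as 1 library (unadjusted p = 0.0691) and -0.80 without Rhy 3 (unadjusted p = 0.0971). Of the most abundant genes of these lists, Prph differed by -0.26, Tubb3 by 0.05, Sncg by -0.08, Vamp2 by -0.35 and Snap25 by 0.18 on the log2 scale in Rhy against model, none with an unadjusted p under 0.05.

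Among the other transmitters, Gal and Sst were lower (2.8% of all genes) and Npy higher (4.89% of all genes) in DXM against model at an unadjusted p under 0.05. Of the 7 genes of inhibitory motor neurons, 3 were higher and 4 lower in that comparison (median -0.09). Of the 13 tested genes of excitatory and sensory transmitters, 2 were higher and 11 lower (median -0.32), where 48.5% of all genes were higher. Gal, the neuropeptide galanin, was at 54.9, 54.9 and 49.6 CPM in the model mice and 24.0, 24.0 and 8.76 CPM in the DXM mice, without overlap (12.2% of all genes were below without overlap). The log2 difference was -1.49 ± 0.59 (SE; unadjusted p = 0.0266 in edgeR), or -1.47 with Model 1 and Model 2 as 1 library (unadjusted p = 0.0501) and -1.15 without DXM 3 (unadjusted p = 0.0927). Sst, somatostatin, which enteroendocrine D cells also make, was at 88.2, 84.6 and 124.0 CPM in the model mice and 11.5, 27.4 and 8.66 CPM in the DXM mice, a log2 difference of -2.64 ± 0.98 (SE; unadjusted p = 0.0201 in edgeR), with an unadjusted p above 0.05 without DXM 1 or without DXM 3. Npy, neuropeptide Y, was near the limit of detection, at 0 to 0.546 CPM in the model and 0.434 to 2.23 CPM in the DXM libraries, and its log2 difference was 2.38 ± 1.09 (SE; unadjusted p = 0.0496 in edgeR), or 2.63 with Model 1 and Model 2 as 1 library (unadjusted p = 0.0617). Tac1, the precursor of substance P, was 0.90 ± 0.40 higher in the DXM than in the control group on the log2 scale (SE; unadjusted p = 0.0462 in edgeR), or 0.63 without the 3 libraries low in Hoxb13 (unadjusted p = 0.189). Penk (enkephalin), Calb2 (calretinin) and Cartpt were 0.45, 0.48 and 0.65 higher in the model than in the control group on the log2 scale, with unadjusted p of 0.406, 0.353 and 0.213 in edgeR.

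Along the Ret pathway no gene had an adjusted p under 0.05, and Gfra1, Nrtn, Zeb2 and Edn3 were among those with an unadjusted p under 0.05. Gfra1, the co-receptor through which GDNF reaches Ret, was at 10.2, 7.46 and 6.79 CPM in the model mice and 1.97, 4.83 and 2.26 CPM in the Rhy mice, without overlap. The log2 difference was -1.43 ± 0.38 (SE; unadjusted p = 0.00257 in edgeR). Edn3, the endothelin ligand of enteric precursors, was at 23.1, 23.7 and 12.7 CPM in the control mice, 4.69, 3.22 and 10.4 CPM in the model mice and 22.9, 16.3 and 14.8 CPM in the Rhy mice. It was below the controls in every model library and above the model libraries in every Rhy library, with log2 differences of -1.70 ± 0.56 and 1.56 ± 0.56 (SE; unadjusted p = 0.0103 and 0.0162 in edgeR); both use the same 3 model libraries. They were -1.47 and 1.33 with Model 1 and Model 2 as 1 library (unadjusted p = 0.0396 and 0.0573). Of the 17 genes of this list, 12 were higher and 5 lower in model against control (median 0.28). Only Edn3 was lower at an unadjusted p under 0.05 (4.51% of all genes). In Rhy against model 8 were higher and 9 lower (median -0.10). By the same rule only Edn3 was higher (1.74% of all genes) and only Gfra1 lower (1.98% of all genes). In DXM against control, Gdnf, Nrtn and Artn, which encode ligands of the family, were 0.80, 1.15 and 1.40 higher on the log2 scale, with unadjusted p of 0.0288, 0.00336 and 0.0121 in edgeR. All 15 smooth muscle genes were also higher in that comparison, 10 of them at an unadjusted p under 0.05. The part of smooth muscle in the levels of these ligands was not tested. Of the 17 genes of the list, 5 were higher at an unadjusted p under 0.05 in that comparison, with Gfra3 and Zeb2 the others, and none lower, where 8.68% of all genes were higher and 10.2% lower by that rule. The 5 became 3 without DXM 1 or without DXM 3. Zeb2, a transcription factor of the neural crest, was also higher in the DXM than in the model group, by 1.22 ± 0.38 on the log2 scale (SE; unadjusted p = 0.00828 in edgeR). In DXM against model 10 of the 17 were higher and 7 lower (median 0.29). At an unadjusted p under 0.05, 3 were higher (4.89% of all genes) and 1, Tlx2, was lower (2.8% of all genes). Ece1, which activates endothelins, differed by -0.54 ± 0.32 on the log2 scale in DXM against control (SE; unadjusted p = 0.126 in edgeR).

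On the receiving side of Vip and nitric oxide, Gucy1a1, a subunit of the nitric oxide receptor guanylate cyclase, was at 15.2, 16.1 and 16.2 CPM in the model mice, 24.8, 21.9 and 18.7 CPM in the Rhy mice and 28.4, 21.3 and 26.5 CPM in the DXM mice. Both drug groups lay above the model group without overlap, with log2 differences of 0.46 ± 0.18 for Rhy and 0.68 ± 0.18 for DXM (SE; unadjusted p = 0.0226 and 0.00227 in edgeR). These were 0.45 and 0.67 with Model 1 and Model 2 as 1 library (unadjusted p = 0.0569 and 0.00946), and without the 3 libraries low in Hoxb13 the difference for Rhy was 0.40 (unadjusted p = 0.0879). Smooth muscle is a main site of this receptor, and the smooth muscle genes were also higher in both, in 14 of 15 for Rhy and 15 of 15 for DXM. In Rhy and DXM against model, Gucy1b1, the other subunit, differed by 0.14 and 0.42 and Pde5a, which breaks down cyclic GMP, by 0.12 and 0.30 on the log2 scale, none with an unadjusted p under 0.05. Vipr1, a receptor for vasoactive intestinal peptide, was 0.57 ± 0.20 lower in the DXM than in the control group on the log2 scale (SE; unadjusted p = 0.0148 in edgeR), as were all 9 epithelial markers (median -0.51). Of the 7 genes listed as receptors and targets of Vip and nitric oxide, the other 6 were higher in that comparison. The median of the 7 was 0.37, and 53.8% of all genes were higher. Among the 6, Vipr2, also a receptor for this peptide, was 0.76 ± 0.35 higher without overlap (SE, unadjusted p = 0.0522 in edgeR).

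Among the glial and Schwann cell genes, Sox10, S100b and Gfap included, the direction was mixed. In model against control 9 of 14 were higher (median 0.17). Erbb3 and Entpd2 were lower at an unadjusted p under 0.05, by -1.05 ± 0.44 and -0.65 ± 0.18 on the log2 scale (SE; unadjusted p = 0.035 and 0.0029 in edgeR), where 4.51% of all genes were lower by that rule. With Model 1 and Model 2 as 1 library the unadjusted p was 0.0681 for Erbb3 and 0.00922 for Entpd2, and without Control 2 Erbb3 was at -0.69 (unadjusted p = 0.162). Erbb3 is also a gene of the colonic epithelium, and at 41.6 FPKM it was far above the other glial genes. In Rhy against model 9 of 14 were lower (median -0.25), among them Sox2, a transcription factor of enteric glia, at -1.51 ± 0.60 (SE; unadjusted p = 0.0283 in edgeR), or -1.06 without Rhy 3 (unadjusted p = 0.104) and -1.50 without the 3 libraries low in Hoxb13 (unadjusted p = 0.0869). Without Rhy 3, 7 of the 14 were lower (median -0.09). In the same comparison Mbp, a myelin gene, differed by -0.09 ± 0.32 on the log2 scale (SE; unadjusted p = 0.787 in edgeR). Scn7a, a sodium channel of non-myelinating glia, was at 14.8 to 15.5 CPM in the model mice and 25.7 to 27.0 CPM in the DXM mice, a log2 difference of 0.80 ± 0.16 (SE; unadjusted p = 0.000405 in edgeR). Of the 14 genes as a list, 8 were higher and 6 lower in DXM against model (median 0.04). Scn7a and Gfra3 were higher there at an unadjusted p under 0.05 (4.89% of all genes) and none was lower (2.8% of all genes).

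Markers of other cell types moved between the groups beside these genes. The 9 epithelial markers summed to 19130 to 30220 CPM in the control, 18590 to 21360 in the model, 22910 to 25810 in the Rhy and 17820 to 21220 in the DXM libraries, and all 9 were lower in the model than in the control group, where the 8 neuronal and glial genes were higher. The 15 smooth muscle genes summed to 4794 to 6169 CPM in the model and 7327 to 8070 CPM in the Rhy libraries, above without overlap, where Gfap was below. With the smooth muscle term, the log2 difference of Gfap in Rhy against model was -2.39 (unadjusted p = 0.00254). Fat cell markers summed to 235.1 CPM in Model 3, against 30.5 to 115.5 CPM in the other 11 libraries. The 4 genes of interstitial cells of Cajal, the pacemaker cells, were all lower in the model than in the control group (median -0.27), and 8 of 10 enteroendocrine genes were (median -0.36). The part of these cell types in the differences of the neuronal and glial genes was not tested, other than by the smooth muscle term.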

How the data were processed

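RNA-Seq libraries of colonic tissue from 12 mice were analysed, 3 per group as the sample labels give them. The authors deposited whole-number read counts per gene, without normalization, and FPKM values made from the same reads (per gene length and library size). The submitters' processing notes name HISAT2 2.0.5, featureCounts 1.5.0-p3, DESeq2 1.16.1 and mm10, with no role stated, and the strand setting of the counting is not given in the sources used here. The authors' RNA-Seq methods name the control, model and Rhy groups; DXM was analysed from the labels.

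Groups were compared on the counts by edgeR 4.0.16 under R 4.3.3 (TMM factors, filterByExpr at a minimum count of 10, quasi-likelihood test, two-sided, all 12 libraries in 1 fit, Benjamini-Hochberg adjustment over 16904 genes in each of 5 comparisons). A prior count of 2 was added only for log2 CPM. On simulated counts of model against control with 200 of 16904 genes changed 4-fold, edgeR recovered 133 with 8 false calls, and DESeq2 1.42.0 recovered 159 with 47. The alternatives were RLE and upper-quartile scaling, no filter beyond a count above 0, fits restricted to the compared groups, DESeq2, limma 3.58.1 on log2(FPKM + 1) and log2(FPKM + 0.1) for genes with a mean FPKM of at least 0.1, a replicate block, Model 1 and 2 as 1 library, a smooth muscle or Hoxb13 term, and each library left out. Chosen after seeing the data were leaving out the 3 libraries under 5 CPM of Hoxb13, protein-coding nuclear genes only, and the fits with libraries merged or left out for the lists beside the 8 genes.

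The 8 genes and the gene lists were chosen with earlier results of these data known, and lists are described by counts and medians with no test. By rule the text names the 8 genes, the 3 genes of each neuronal, glial and pathway list with the highest mean FPKM, any list gene with an adjusted p under 0.05, and the genes most like each of the 8; other genes were named after their values were seen. Calca, Th, Pax4 and Lep were among the list genes too low to test. Some genes that the rule names are not reported here. Promoters came from RefSeq (GRCm38.p6).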

Additional observations from a re-analysis of the deposited data

How the results depend on the processing

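The 40 log2 differences (8 genes in 5 comparisons) were recomputed under 20 alternatives each, 800 values in all, of which 741 kept their direction and their side of the adjusted threshold and 57 changed direction, mostly for Elavl4, Uchl1, Vip, Sox10 and S100b at values near 0. The cause was not tested. With DESeq2 on only the groups compared, 1 of the 8 genes passed the adjusted threshold in Rhy against model (Gfap, -2.27). In DXM against model 1 of the 8 passed (Nos1, -1), where edgeR gave 0 of the 8 in both. Over all genes that fit passed 41 of 27279 (0.15%) in Rhy against model and 590 of 28336 (2.08%) in DXM against model.

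The number of the 8 genes with an unadjusted p under 0.05, which edgeR put at 1 for model against control, 2 for Rhy against model, 1 for DXM against model, 0 for Rhy against control and 1 for DXM against control, moved as follows. In model against control it was 0 with Model 1 and 2 as 1 library or with the smooth muscle term, and 2 with DESeq2 on only the groups compared, genes with any count, the Hoxb13 term, only the groups compared or the replicate block. The share over all genes was 9.62% in the main fit, 4.99% with Model 1 and 2 as 1 library and 11.7% with the smooth muscle term. It was 6.4% to 11.2% where the number was 2. In DXM against model it was 0 with Model 1 and 2 as 1 library, the smooth muscle term, upper-quartile scaling, limma on log2(FPKM + 0.1), protein-coding nuclear genes only or the replicate block, and 2 with only the groups compared. The share over all genes was 7.69% in the main fit, 2.23% to 8.2% where the number was 0 and 15.4% where it was 2. In DXM against control it was 0 with Model 1 and 2 as 1 library, RLE scaling, the smooth muscle term or without the 3 libraries low in Hoxb13, and in Rhy against control it was 1 with the Hoxb13 term. For DXM against control the share over all genes was 18.9% in the main fit and 10.1% to 23.6% where the number was 0. For Rhy against control it was 11.6% in the main fit and 14.3% with the Hoxb13 term. With each library left out in turn the number ran from 0 to 1 in model against control, 1 to 3 in Rhy against model, 0 to 1 in DXM against model, 0 to 1 in Rhy against control and 0 to 2 in DXM against control. The share over all genes ran from 5.12% to 16.2%, 1.67% to 6.13%, 3.11% to 9.2%, 6.87% to 16.9% and 9.48% to 23.5% in the same order.

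Among the directions, Elavl4 in DXM against control was -0.02 with both DESeq2 fits, RLE scaling, only the groups compared or limma on log2(FPKM + 0.1), -0.01 with limma on log2(FPKM + 1), and -0.03 with the replicate block or without the libraries low in Hoxb13. Elavl4 in Rhy against model was -0.02 with the Hoxb13 term, -0.22 and -0.07 with limma (pseudocounts 0.1 and 1), -0.14 with the replicate block and -0.29 without the libraries low in Hoxb13. Vip in Rhy against model was -0.16 and -0.14 with limma, -0.05 with the replicate block and -0.34 with the smooth muscle term, and Vip in DXM against model was -0.29 with that term. The smooth muscle term also gave Sox10 -0.13 in DXM against control and -0.24 in DXM against model, and S100b -0.21 in DXM against control. Without the libraries low in Hoxb13, S100b was -0.02 in DXM against control and 0 in model against control, and Uchl1 was -0.02 in DXM against control, 0.08 in DXM against model, -0.10 in model against control and -0.36 in Rhy against control. Uchl1 was 0.01 in DXM against model with upper-quartile scaling, and Ret -0.01 in Rhy against control with limma on log2(FPKM + 0.1).

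With each library left out in turn, the ranges that crossed 0 were -0.16 to 0.28 and -0.32 to 0.46 for Elavl4 (DXM against control, Rhy against model), -0.17 to 0.98 for Gfap (DXM against control), -0.20 to 0.49 for Ret (Rhy against control), -0.14 to 0.54, -0.49 to 0.08 and -0.40 to 0.15 for S100b (DXM against control, DXM against model, Rhy against control), -0.03 to 0.59 and -0.37 to 0.26 for Sox10 (model against control, Rhy against control), -0.27 to 0.84, -0.64 to 0.23, -0.05 to 0.79 and -0.42 to 0.35 for Uchl1 (DXM against control, DXM against model, Rhy against control, Rhy against model), and -0.78 to 0.37 for Vip (Rhy against model).

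The labels number the mice 1 to 3 in each group. Of 18 same-numbered pairs, 5 correlated above 0.1 in their deviations from the group means (-0.31 to 0.36). Pairs with different numbers ran from -0.41 to 0.40, and 5 of 12 libraries were closest to their own number. These values gave no sign of pairing by number. With groups of 3 they cannot exclude shared cages, litters or processing. With the replicate block Gfap in Rhy against model was -2.18. Groups of 3 mice and the low counts of S100b, Sox10 and Gfap limit the precision.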
